A study of Bos taurus with 36 samples.

Results

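Mammary tissue on day 40 of lactation was compared between udder sides of the same cow that had once been milked at different frequencies. The 12 day 40 arrays, of 36 in the series, were chosen by their sample titles: 6 glands formerly milked 4 times daily (4×) and 6 control glands milked 2 times daily (2×), 1 of each from every one of 6 cows. The cows were multiparous Holsteins in unilateral frequent milking, in which 1 side of the udder is milked more often than the other. The right side was milked 4 times and the left side 2 times daily from day 1 to day 21 of lactation, and both sides were then milked 2 times daily. Biopsies came from rear glands on day 21 and again on day 40, and from fore glands on day 23. The day 40 tissue was thus collected 19 days after frequent milking ended, when both glands of a cow were on the same schedule.

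No other treatment separated the groups. Each cow served as its own control, so genotype, age, feed and blood-borne hormones were shared by a 4× gland and its 2× partner. The 4× gland was always on the right, so the former milking frequency and the side of the udder cannot be told apart. Both rear glands had already been biopsied on day 21, and no gland was sampled before treatment. The tissue was whole gland, in which fewer cells of a type and less RNA per cell cannot be told apart.

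The udder regulates milk synthesis locally as well as through hormones. Milk removal empties alveoli, the sacs of secretory epithelial cells, and the cells respond to distension, to factors held in milk and to the hormones that reach them. Frequent milking early in lactation is known to raise milk yield, and part of the gain persists after milking frequency is equalised, which makes tissue from the later period of interest for how a gland retains the effect of earlier milking.

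Expression was measured on the Affymetrix Bovine Genome array, in which a probe set is a group of short oligonucleotides for 1 transcript. The deposited values were log2 signals after robust multi-array averaging (RMA), and 24016 probe sets were tested after control probe sets were left out. Of these, 13292 carried 1 gene symbol, for 9155 genes. Differential expression was taken within each cow as 4× minus 2× on the log2 scale, so a value of −1 is a level lower by 2-fold in the 4× gland. Values are the mean of 6 cows with the standard error (SE) from limma, whose fit held the within-cow differences of all 3 days. The SE and the p-value thus pool the spread of 3 days. They can understate the spread on day 40 for genes whose difference was held by a few cows.

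The arrays carried the signature of lactating gland. The 7 secretory epithelium markers, which include caseins and GLYCAM1, averaged 14.2 to 14.3 in every 2× and every 4× gland, and the 7 red cell markers each had a mean under 5 over the 12 arrays. Array medians lay between 6.05 and 6.14 and were higher in the 4× gland of 5 of 6 cows. The signal of the actin control probes nearest the 3′ end minus that at the 5′ end, a sign of RNA quality, ran from 1.3 to 1.67 in 2× and from 0.97 to 1.57 in 4× glands and was lower in the 4× gland of 5 of 6 cows, by 0.13 ± 0.16 (SD). The same measure for GAPDH was lower in 4× glands of 4 of 6 cows, by 0.18 ± 0.27 (SD). For EF1A it was −2.20 in the 2× and −2.76 in the 4× gland of cow 1, and −2.22 and −2.65 in cow 3. The glands of the other cows lay closer together in EF1A, with the 4× gland higher in cow 4. The part of RNA quality in the differences below was not tested.

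No probe set differed between 4× and 2× glands on day 40 after adjustment for multiple tests. In limma 0 of 24016 probe sets (0%) had a Benjamini-Hochberg adjusted p under 0.05, and the smallest adjusted p was 0.171. At an unadjusted p under 0.05, 2127 probe sets (8.86%) were lower and 2783 (11.6%) were higher in 4× glands, and a linear model without limma's moderation of variances gave 1868 and 2645. At an unadjusted p under 0.01 these numbers were 604 and 699. Because nothing passed the adjusted threshold, "lower" and "higher" below describe measured means and carry no call.

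The differences were small. The median SE was 0.09, and 99.4% of probe sets had a mean difference of less than 0.5 in either direction. Only 5 probe sets had a mean lower by 2-fold or more, those of CFI, CYBRD1 and CHI3L1 and 2 without a symbol, and 0 had a mean higher by 2-fold. In 6 of 6 cows 857 probe sets (3.57%) were lower in the 4× gland and 1104 (4.6%) were higher. All 6 levels of the 4× glands lay below all 6 levels of the 2× glands for 33 probe sets (0.137%), and above them for 76 (0.316%).

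The excess of higher over lower probe sets lay among dim ones and depended on scaling. Among 7500 probe sets with a mean under 5, 1200 (16%) were higher and 156 (2.08%) lower at an unadjusted p under 0.05, whereas among the 16516 brighter ones 1583 (9.59%) were higher and 1971 (11.9%) lower. The share of higher ones among all that passed this unadjusted threshold was 56.7%, but 37.4% after each array was centred on its median and 28.3% after scaling to 5 reference genes. With 1 probe set for each of the 9155 genes, 871 (9.51%) were lower and 815 (8.9%) higher. The plot of difference against level shows this drift.

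**Figure D1:**
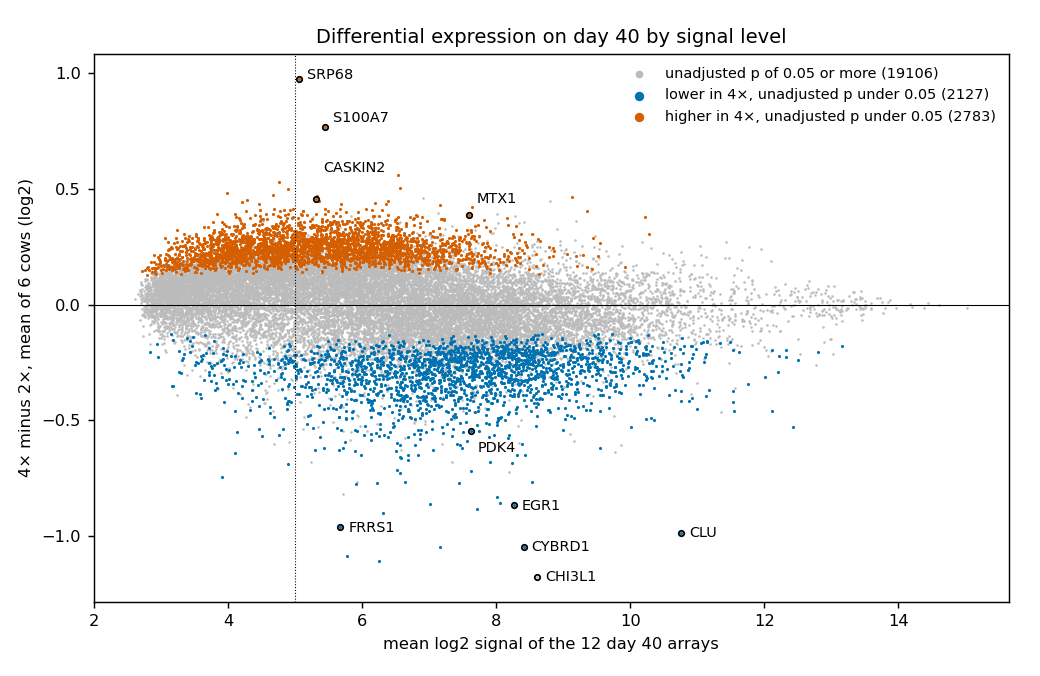
Mean difference on day 40 (4× minus 2×, log2, y axis) against mean level over the 12 arrays (log2, x axis) for all 24016 probe sets, each a point, with probe sets at an unadjusted p under 0.05 coloured. Most points lie within 0.5 of 0, the dimmest sit slightly above 0, and the few largest differences are negative and belong to probe sets of moderate or high level.

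Of the genes lower in 4× glands with a mean level of at least 5, PDK4 had the smallest p. PDK4, the kinase that switches off pyruvate dehydrogenase and so holds carbohydrate back from oxidation, had 2× levels of 7.0, 7.95 and 9.16 (lowest, median and highest) and 4× levels of 6.45, 7.49 and 8.33. The cows differed widely in level and the groups overlapped, yet the 4× gland was the lower of the pair in 6 of 6 cows, by 0.38 to 0.84. Its mean difference was −0.55 (SE 0.11, limma unadjusted p 4.81e-05, adjusted p 0.171), a 1.46-fold lower level. Its other probe sets gave −0.61 (SE 0.14) and −0.34 (SE 0.11), both lower in 6 of 6 cows.

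SESN1, a stress-induced sestrin that restrains the growth-promoting kinase complex mTORC1, ranged from 7.04 through a median of 7.38 to 9.19 in 2× glands. In 4× glands it ranged from 6.72 through 6.97 to 8.32. The ranges overlapped, and SESN1 was lower in the 4× gland of every cow, with a mean of −0.51 (SE 0.11). CLK1, a kinase of splicing factors, was 1 of only 2 genes of these 12 whose groups did not overlap, with 2× glands from 8.33 to 9.01 and 4× glands from 7.95 to 8.30 (mean difference −0.41, SE 0.09). The other was ZNF398, a zinc finger protein, at 7.46 to 7.65 in 2× and 6.95 to 7.38 in 4× glands (−0.27, SE 0.07).

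A further 5 of the 12 lower genes act in the nucleus or on RNA. HDAC7, a class IIa histone deacetylase, differed by −0.49 (SE 0.10), and its second probe set by −0.27 (SE 0.09). ARID4B, a subunit of a histone deacetylase complex, differed by −0.49 (SE 0.12), and in 2× glands it lay between 7.88 and 8.43 against 7.46 to 8.0 in 4× glands. AGO2, the slicer of small-RNA silencing, differed by −0.49 (SE 0.12), though its other probe set gave −0.07. NCOA1, a coactivator of steroid and nuclear receptors, differed by −0.39 (SE 0.09) and was higher in the 4× gland of cow 2 alone, by 0.07. Its other probe sets gave −0.21, −0.11 and −0.04. PHF11, a PHD finger protein, differed by −0.43 (SE 0.11).

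The last 3 of the 12 belong to the cytoskeleton and to mitochondria. ACTN1, an actin crosslinker, differed by −0.38 (SE 0.08), KLC1, a light chain of the kinesin motor, by −0.36 (SE 0.09), and FBXL4, an F-box protein that restrains the removal of mitochondria, by −0.45 (SE 0.10). In all, 9 of the 12 were lower in 6 of 6 cows, with unadjusted p from 4.81e-05 to 5.51e-04 in limma. For 11 of the genes the array held 20 further probe sets, of which 14 were also negative and 7 of those passed an unadjusted p of 0.05.

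**Figure D2:**
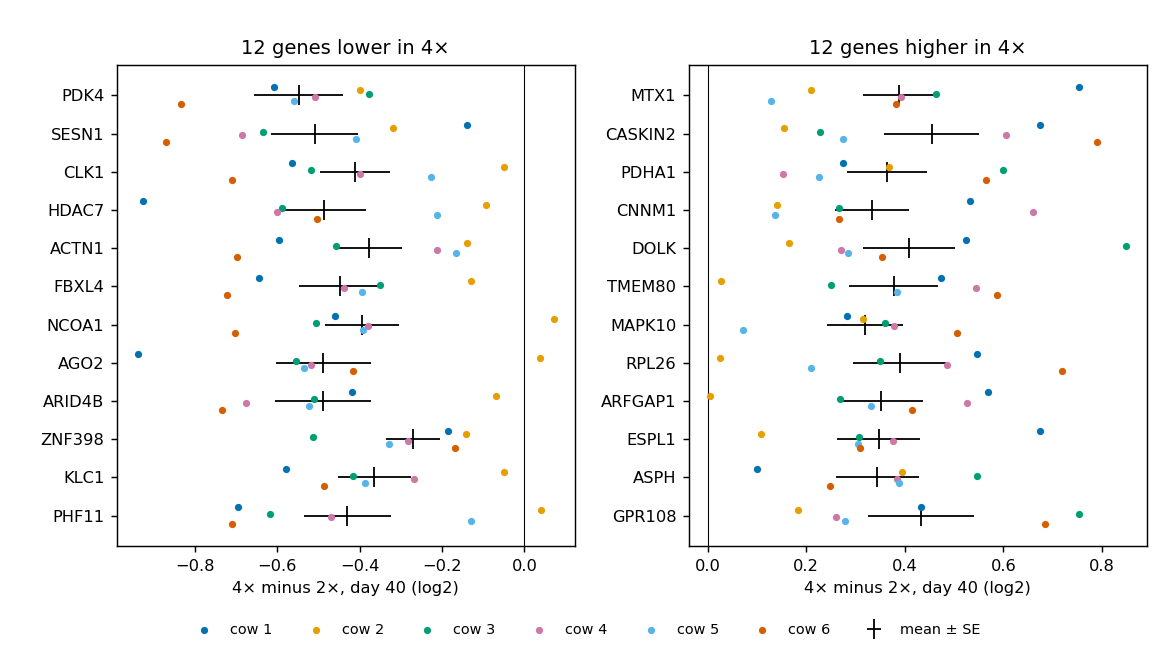
Within-cow difference on day 40 (4× minus 2×, log2, x axis) for the 12 genes lower and the 12 higher with the smallest p, 1 gene a row, with each of the 6 cows as a point and the mean with its SE from limma. Of the 12 lower genes 9 have every cow below 0, and all 12 higher genes have every cow above 0.

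Among genes higher in 4× glands, those with the smallest p had mean levels of 5.06 to 7.59, against 5.65 to 9.83 for the lower ones. MTX1, a component of protein import at the mitochondrial outer membrane, had the smallest p among genes with a mean level of at least 5 (3.13e-05, adjusted p 0.171 in limma). Its 2× levels were 7.18, 7.40 and 7.60 (lowest, median, highest) against 7.57, 7.75 and 8.06 in 4× glands, a mean difference of 0.39 (SE 0.07) that was positive in 6 of 6 cows and whose groups barely overlapped. A brighter MTX1 probe set, at a mean of 8.22, gave 0.09 (SE 0.07).

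PDHA1, the catalytic subunit that PDK4 phosphorylates and inactivates, gave 0.36 (SE 0.08) in the probe set with the smallest p. That probe set ran from 5.73 to 6.1 in 2× and from 6.12 to 6.47 in 4× glands, without overlap. The brightest PDHA1 probe set, at a mean of 10.2, gave −0.06 (SE 0.07), so the sign for this gene depends on the probe set. RPL26, a cytosolic ribosomal protein, was alike in this, at 0.39 (SE 0.09) for the named probe set and −0.02 for the brightest, whose mean was 12.7.

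CNNM1, of the cyclin M family of membrane proteins, and TMEM80, a transmembrane protein, were the others without overlap. CNNM1 lay at 6.19 to 6.48 in 2× and 6.52 to 7.0 in 4× glands (0.33, SE 0.07), and TMEM80 at 6.21 to 6.56 and 6.59 to 6.85 (0.38, SE 0.09). DOLK, the dolichol kinase that starts the lipid carrier of N-glycosylation, differed by 0.41 (SE 0.09) and ARFGAP1, a regulator of Golgi coat assembly, by 0.35 (SE 0.08). The remaining genes were CASKIN2 (0.45), GPR108 (0.43), the separase gene ESPL1 (0.35), ASPH (0.34) and MAPK10, a neural JNK kinase (0.32). The named probe set was not the brightest for 8 of the 12 genes, and of 14 further probe sets in 10 genes 8 were positive and 2 of those passed an unadjusted p of 0.05.

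The largest mean differences came from genes that were high in the 2× glands of some cows. CYBRD1, a ferric reductase of the cell membrane, differed by −1.05 (SE 0.32), and its 2× levels were 7.43, 9.08 and 10.15 against 7.07, 7.94 and 8.51 in 4× glands. By cow the differences were −1.77, 0.04, −2.12, −0.06, −0.36 and −2.0 for cows 1 to 6. Cows 1, 3 and 6 therefore held nearly all of the difference, and their 2× glands had the 3 highest levels. The second CYBRD1 probe set gave −0.77 (SE 0.31).

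FRRS1, a second ferric reductase, followed the same cows, with differences of −1.94, −1.52 and −2.02 in cows 1, 3 and 6 and between −0.27 and 0.13 in the other cows (mean −0.96, SE 0.32). So did ITPR1, the calcium channel of the endoplasmic reticulum (−0.77, SE 0.29), although its 4 other probe sets gave −0.12 to 0.10. STMN1, which destabilises microtubules, differed by −0.72 (SE 0.28), CDO1, which commits cysteine to taurine synthesis, by −0.69 (SE 0.23) and KLF10, a factor induced by TGF-β, by −0.65 (SE 0.25). CRIM1, a transmembrane regulator of bone morphogenetic proteins (−0.68, SE 0.18), and ZNF462, a zinc finger protein (−0.66, SE 0.17), were spread more evenly over the cows and kept an unadjusted p under 0.05 whichever cow was left out.

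Large negative differences in cows 1, 3 and 6 were also seen for CLU, EGR1 and CHI3L1, which were taken from earlier results of these data. CLU (clusterin), a secreted chaperone that rises in regressing glands, had 2× levels of 9.84, 11.21 and 12.62 and 4× levels of 9.52, 10.28 and 11.18. Its difference was −2.17, −1.90 and −2.33 in cows 1, 3 and 6 and 0.02, 0.60 and −0.13 in cows 2, 4 and 5 (mean −0.99, SE 0.40). EGR1, an immediate-early transcription factor, differed by −1.69, −1.41 and −1.96 in cows 1, 3 and 6 (mean −0.87, SE 0.30), while its other probe set gave a mean of 0.26 (SE 0.12). CHI3L1, a chitinase-like glycoprotein of involuting gland, ranged over 6.29 to 11.92 in 2× glands and differed by −3.28 in cow 3 but 1.72 in cow 4, so that its mean of −1.18 had an SE of 0.68.

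Complement factors CFI and CFB, chosen after their values were seen, were also most negative in these cows. CFI, the complement inhibitor, differed by −2.61, −2.65 and −2.15 in cows 1, 3 and 6 and by 0.91 in cow 4 (mean −1.11, SE 0.47), and CFB, of the alternative pathway, by −1.54, −2.15 and −1.63 and by 0.48 (mean −0.86, SE 0.35). Left out in turn, single cows moved CYBRD1 between −1.26 and −0.83, FRRS1 between −1.18 and −0.75 and CLU between −1.30 and −0.72. In limma, with the spread pooled over days, CYBRD1 kept an unadjusted p under 0.05 each time, and CLU lost it in 2 of 6 cases.

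**Figure D3:**
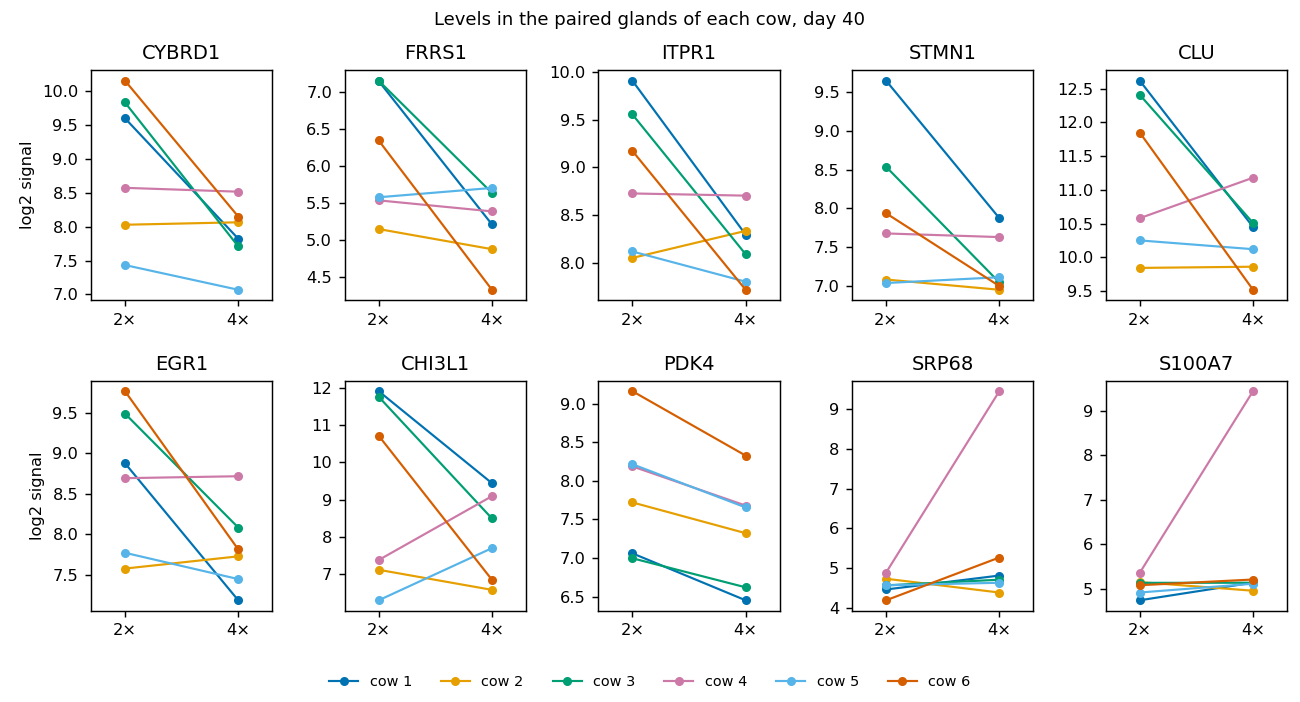
Level on day 40 (log2 signal, y axis) of 10 genes in the 2× and 4× glands of each of 6 cows, with a line joining the glands of a cow. For CYBRD1, FRRS1, ITPR1, STMN1, CLU, EGR1 and CHI3L1 the steep lines start from high 2× glands, PDK4 runs nearly parallel in all cows, and SRP68 and S100A7 are set apart by the 4× gland of cow 4.

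The cows contributed unequally over the whole array as well. Cows 1, 6 and 3 had the widest spread of differences, with SDs of 0.43, 0.33 and 0.29, against 0.17 to 0.25 for cows 2, 4 and 5. Cow 1 had 581 differences of at least 2-fold, 552 of them lower in the 4× gland, and cows 3 and 6 had 146 and 120, but cows 2, 4 and 5 only 15, 28 and 5. The 2× array of cow 1 had the lowest median correlation with the other day 40 arrays (0.98). The arrays of cow 1 were also the least correlated pair in their deviations from group means (0.251). The part of array quality in these counts was not tested. Across probe sets the differences of cows 1, 3 and 6 correlated with the mean of the other 5 cows at r = 0.51, 0.55 and 0.61, those of cows 4 and 5 at 0.28 and 0.31, and those of cow 2 at −0.22. These correlations are across 24016 probe sets and are descriptions, since probe sets are not independent replicates.

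The 2 largest positive means rested on 1 gland. The SRP68 probe set, for a signal recognition particle subunit, had levels of 4.38 to 9.45 in 4× glands, and the highest was cow 4's. Its difference was 4.56 in cow 4 and between −0.35 and 1.08 elsewhere (mean 0.97, SE 0.39), and the mean was 0.26 without cow 4. The second SRP68 probe set gave 0.09. S100A7, an antimicrobial protein of stratified epithelium, behaved alike, at 4.08 in cow 4 and −0.19 to 0.40 elsewhere (mean 0.77, SE 0.34, and 0.11 without cow 4). The SD of its day 40 differences was 1.64, so the pooled SE understates their spread.

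The 4× gland of cow 4 was also high for genes of stratified epithelium, chosen after their values were seen. KRT14, a basal keratin, was higher there by 3.24 than in its 2× partner, DSG1, a desmosomal cadherin, by 1.90 and KRT10, a suprabasal keratin, by 1.37. The part of this gland's tissue composition in other results was not tested. Among genes with a mean level of at least 5, an unadjusted p under 0.05 and the same sign in at least 5 cows, the next largest positive means were OOEP (0.50), TKDP1 (0.47), CASKIN2 (0.45), VIPR1, the receptor for vasoactive intestinal peptide (0.45), MARS1, a methionyl-tRNA synthetase (0.44), and NAA50, an acetyltransferase of protein ends (0.43), each positive in 6 of 6 cows.

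Gene lists by function were read against the shares over all 9155 genes, which were 9.51% for lower and 8.9% for higher genes at the same unadjusted threshold of 0.05. These shares do not suit dim members, since 16% of probe sets with a mean under 5 were higher and 2.08% lower. Of 48 lists, 26 had a negative and 22 a positive median, and the medians lay between −0.20 and 0.16. The list mean was lower in 6 of 6 cows for 3 lists and higher in 6 of 6 for 3. The median of all 9155 genes was −0.00, so each list moved little on average. No set test was made.

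Milk protein genes were close to 0. None of 6 caseins and whey proteins passed an unadjusted p of 0.05, and their median was 0.00. CSN1S1 (αs1-casein) had 2× levels of 13.22, 13.27 and 13.52 and 4× levels of 13.15, 13.37 and 13.57, a difference of 0.06 (SE 0.07). CSN2 (β-casein) lay within 0.005 of the highest value of the array on 12 of 12 arrays, where the scale cannot show a difference. GLYCAM1, a mucin of whey, differed by −0.01 and BTN1A1 (butyrophilin), which anchors the milk fat globule coat, by 0.02, or −0.02 with arrays centred on their median.

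None of 7 milk fat globule genes passed, but their mean was higher in the 4× gland of 6 of 6 cows, by 0.03 to 0.16, with a list median of 0.05 that became 0.01 with arrays centred on their median. Glucose uptake and lactose synthesis was alike, with a mean higher in 6 of 6 cows, by 0.01 to 0.06. Its list median of 0.05 also became 0.01 with arrays centred on their median. In that list HK1, a hexokinase, differed by −0.36 (SE 0.15), GALK1, a galactokinase, by 0.20 (SE 0.09) and SLC2A1, the main glucose transporter of the gland, by 0.16 (SE 0.11). None of 15 nutrient and ion transporters and none of 17 unfolded protein response genes passed.

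Lipid genes went both ways. Of 15 genes of de novo fatty acid synthesis 3 were lower and 2 higher, among them ELOVL5, a fatty acid elongase (−0.40, SE 0.16), MLXIPL, the carbohydrate-responsive factor ChREBP (0.30, SE 0.10), and ME1, which supplies NADPH (0.23, SE 0.08). Of 15 genes of fatty acid uptake and triglyceride synthesis 2 were higher, DGAT2 (0.29, SE 0.10) and MOGAT1 (0.25, SE 0.11), both acyltransferases with median levels under 5. In cholesterol synthesis 1 of 14 was higher, MVD of the mevalonate pathway (0.25, SE 0.11), and that list's median of 0.06 was −0.03 without cow 1. Of 31 genes of the endoplasmic reticulum and vesicle coats 1 was higher, SAR1A (0.34, SE 0.12), and 1 lower, SEC31A (−0.16, SE 0.07), both of the coat that carries cargo to the Golgi. SAR1A rested on cow 3, at 1.15, and was 0.17 without it.

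The growth and energy signalling lists held more lower genes. Of 13 genes of mTORC1 and energy sensing 5 (38.5%) were lower and 1 higher, and the list mean was lower in the 4× gland of 6 of 6 cows. Besides SESN1 these included RPS6KB1, the S6 kinase that mTORC1 activates (−0.37, SE 0.09), and TSC1, which inhibits mTORC1 (−0.34, SE 0.11). RPTOR, a subunit of mTORC1 (−0.22, SE 0.09), and ULK1 (−0.21, SE 0.09) were also among them, each lower in 6 of 6 cows. A subunit, a target and inhibitors of the complex were thus lower in the same glands. The list median was −0.07, and −0.11 with arrays centred on their median.

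The insulin-like growth factor and insulin axis had 6 of 20 genes (30%) lower and 3 higher, with a mean lower in 6 of 6 cows and a median of −0.07. The brightest INSR probe set, for the insulin receptor, had 2× levels of 5.97, 6.31 and 7.48 and 4× levels of 5.62, 5.94 and 6.46, and differed by −0.54 (SE 0.17). One more INSR probe set gave −0.41 and 3 others 0.12 to 0.17, so its probe sets disagreed. IGF1, the local growth factor, gave 0.28 (SE 0.11) and 0.29 (SE 0.09) in its 2 brightest probe sets and 0.06 and 0.09 in the dimmer ones. IGF1R, its receptor, gave 0.30 (SE 0.09) in one and −0.00 in the other.

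In the growth hormone, prolactin and STAT5 list 1 of 10 genes was lower. It was PRLR, the prolactin receptor, with 2× levels of 8.86, 9.11 and 9.69 and 4× levels of 8.19, 8.78 and 9.11 (−0.40, SE 0.17). Cow 1 differed by −1.51 and the other cows by −0.58 to 0.09. SOCS2, a target and brake of STAT5, differed by −0.15 (SE 0.08). Of 12 steroid and thyroid receptors and co-regulators 3 were lower, among them the retinoid X receptor RXRA (−0.23, SE 0.08) and CREBBP, a histone acetyltransferase (−0.28, SE 0.09).

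Local feedback genes leaned the other way. In the serotonin, PTHLH and calcium list 4 of 16 (25%) were higher and 1 lower, the list median was 0.14, and its mean was higher in the 4× gland of 6 of 6 cows, by 0.00 to 0.18. MAOA, which degrades serotonin, differed by 0.27 (SE 0.10), HTR2A, a serotonin receptor of low level, by 0.28 (SE 0.12) and STIM1, the sensor of stored calcium, by −0.33 (SE 0.11). In the Wnt and Notch list 4 of 16 were lower and 0 higher, and the mean was lower in 6 of 6 cows. They included CTNNB1 (β-catenin, −0.29, SE 0.10), FZD1, a Wnt receptor (−0.49, SE 0.20), and RBPJ, the Notch effector (−0.24, SE 0.10).

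**Figure D4:**
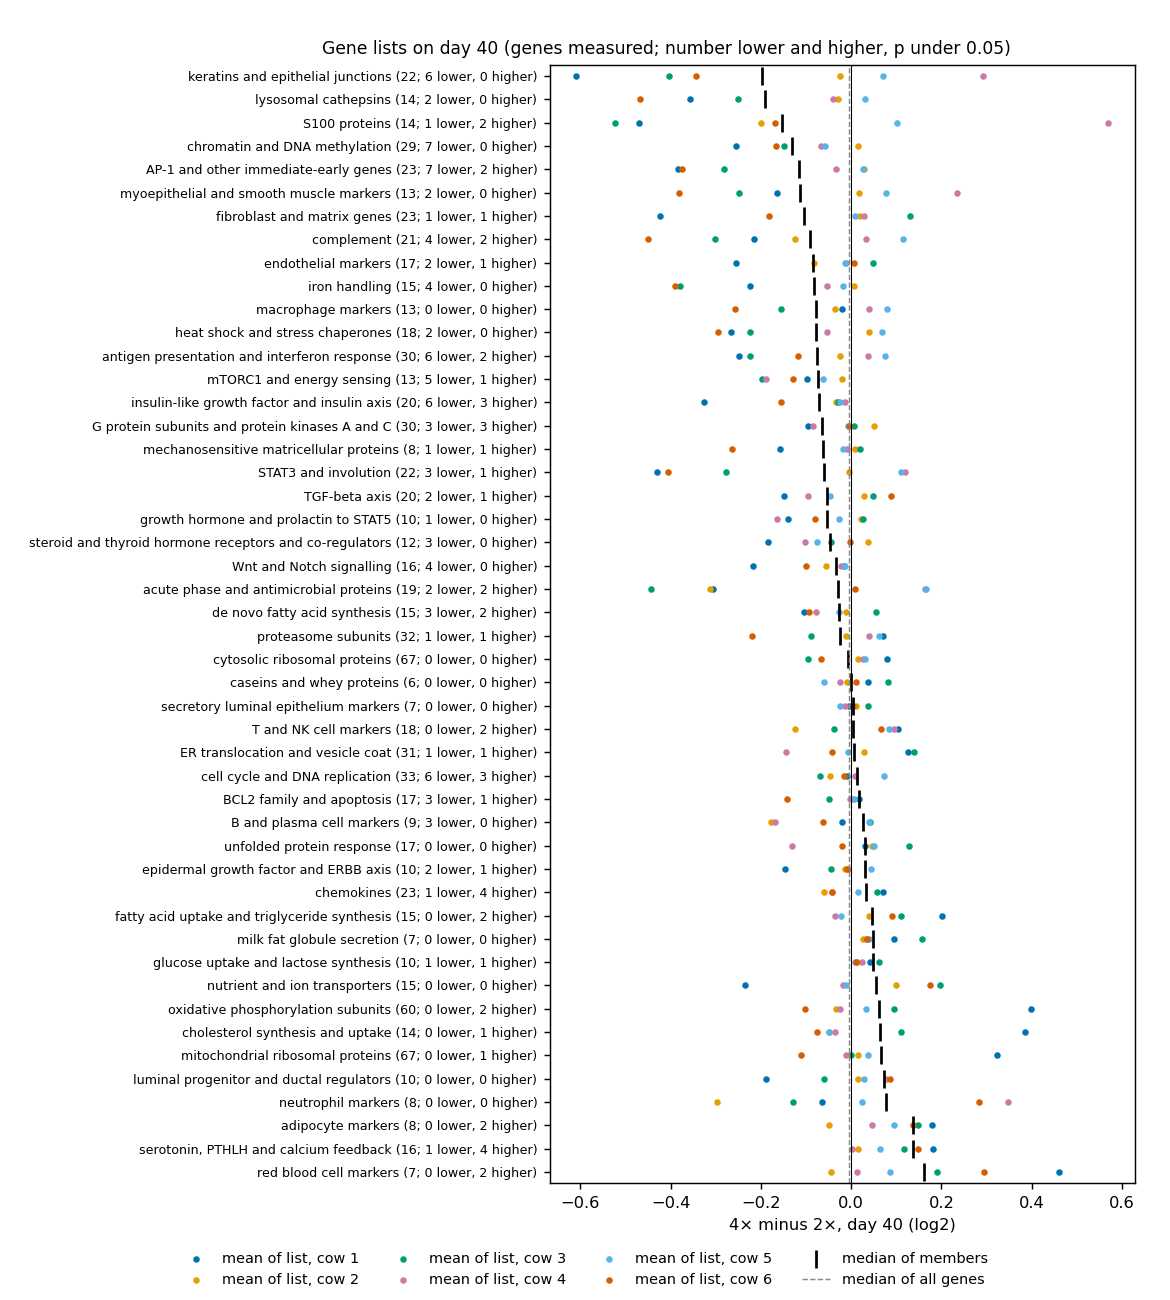
Mean difference on day 40 (4× minus 2×, log2, x axis) over the measured members of gene lists, 1 list a row, with the mean in each of the 6 cows as a point and the median of members as a line mark. Means of cows lie close to 0 for milk protein genes, cows 1, 3 and 6 give the most negative points for keratins, cathepsins and immediate-early genes, and cow 4 lies above 0 for keratins and S100 proteins.

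Other growth factor lists were near the background. Of 20 TGF-β genes the ligand TGFB2 (−0.39, SE 0.14) and the receptor ACVR1 (−0.34, SE 0.14) were lower and the receptor TGFBR1 higher (0.36, SE 0.15). Of 10 genes of the EGF and ERBB axis GRB7, an adaptor (−0.28, SE 0.09), and ERRFI1, a feedback inhibitor (−0.54, SE 0.22), were lower and EGF itself, at median levels of 4.69 in 2× and 5.0 in 4× glands, was higher (0.25, SE 0.08). G protein subunits and protein kinases A and C had 3 of 30 lower and 3 higher, among them GNAI1 (−0.33, SE 0.11), GNG7 (0.25, SE 0.08) and GNA15 (0.25, SE 0.09).

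Among regulators of the nucleus, 7 of 29 chromatin and DNA methylation genes (24.1%) were lower and 0 higher, 23 had a negative difference and the median was −0.13. DNMT1, which copies DNA methylation at replication, had 2× levels of 7.16, 7.26 and 7.5 and 4× levels of 6.61, 6.92 and 7.25 and was lower in 6 of 6 cows, by 0.36 (SE 0.09). The median stayed negative whichever cow was left out, between −0.17 and −0.09. Of 33 cell cycle and replication genes 6 (18.2%) were lower and 3 higher. MCM4 (−0.36, SE 0.12) and MCM7 (−0.35, SE 0.12), subunits of the replicative helicase, and CCND2, cyclin D2 (−0.26, SE 0.08), were each lower in 6 of 6 cows, although this list's median was 0.01 and turned to −0.02 with centred arrays. The other lower genes were CDKN1C (−0.26, SE 0.10), RB1 (−0.25, SE 0.11) and TYMS (−0.18, SE 0.08). The higher ones were AURKB (0.25, SE 0.09), CDC6 (0.22, SE 0.08) and CCNE1 (0.22, SE 0.10).

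Immediate-early genes, transcription factors that respond within minutes to stimuli, had 7 of 23 (30.4%) lower and 2 higher with a median of −0.12. BTG1, an antiproliferative factor, was lower in 6 of 6 cows (−0.50, SE 0.16), JUNB differed by −0.44 (SE 0.15) and FOSB by 0.26 (SE 0.09). The list mean was −0.38, −0.28 and −0.38 in cows 1, 3 and 6 and −0.03 to 0.03 in the others. Heat shock genes had 2 of 18 lower, CRYAB (−0.51, SE 0.24) and HSPA1A (−0.28, SE 0.11). Of 8 matricellular genes CCN2 was lower (−0.35, SE 0.16) and TNC higher (0.35, SE 0.10).

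Lysosomal and defence genes were mostly negative. Of 14 genes in the list of cathepsins, proteases of lysosomes, 13 had a negative difference. Of these 2 (14.3% of the list) were lower, CTSC (−0.49, SE 0.20) and CTSH (−0.32, SE 0.15), with a list median of −0.19. The list also holds LAMP1, LAMP2 and LGMN, which are lysosomal but not cathepsins. Of 15 iron-handling genes 4 (26.7%) were lower, CYBRD1 among them, with HMOX1, the haem-degrading oxygenase (−0.42, SE 0.17), and CYB561 (−0.40, SE 0.18), both with their largest differences in cows 1, 3 and 6. Complement had 4 of 21 lower and 2 higher, including SERPING1, an inhibitor of its first component (−0.33, SE 0.12), and C4A (−0.32, SE 0.13).

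Antigen presentation and interferon genes had 6 of 30 (20%) lower and 2 higher, including IFIT5 (−0.40, SE 0.14) and TAP2, a peptide transporter (−0.31, SE 0.12). In the STAT3 and involution list 3 of 22 were lower and 1 higher, so CLU stood among few, with TIMP1, a protease inhibitor, at −0.34 (SE 0.15) and MMP3, a stromelysin of low level, at 0.24 (SE 0.10). Of 17 genes of apoptosis 3 were lower, including BIRC3, an inhibitor of apoptosis (−0.35, SE 0.10). FADD was higher (0.21, and 0.10 without cow 1). Of 14 S100 proteins 1 was lower, S100A14 (−0.62, SE 0.27), and 2 higher, and the list median of −0.15 was −0.27 without cow 4 and −0.08 without cow 1. Acute phase and antimicrobial proteins had 2 of 19 lower and 2 higher, including LBP, which presents bacterial lipopolysaccharide (−0.47, SE 0.18), and SLPI, a protease inhibitor (0.28, SE 0.11). Chemokines had 1 of 23 lower and 4 higher, led by CCL22 (0.33, SE 0.09).

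Markers of other cell types were examined because a biopsy holds stroma, vessels and leukocytes. Keratins and epithelial junctions had 6 of 22 (27.3%) lower and 0 higher, with a list median of −0.20 (−0.11 without cow 1) and list means of −0.61, −0.40 and −0.34 in cows 1, 3 and 6 and 0.29 in cow 4. JUP (plakoglobin) was lower in 6 of 6 cows (−0.48, SE 0.18), and EPCAM, an epithelial adhesion protein, differed by −0.30 (SE 0.12). The mean level over the list was 7.68 to 8.48 in 2× and 7.71 to 8.07 in 4× glands. Myoepithelial markers had 2 of 13 lower, KRT5 (−0.42, SE 0.19) and MYH11 (−0.27, SE 0.12), and their median of −0.11 was 0.00 without cow 6.

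Leukocyte markers were mixed. None of 13 macrophage and none of 8 neutrophil markers passed, and their list means ran from 7.03 to 7.35 and from 5.51 to 5.83 in 2× glands and from 6.88 to 7.39 and from 5.44 to 6.05 in 4× glands. T and NK cell markers had 0 of 18 lower and 2 higher, CD28 (0.26, SE 0.10) and CD6 (0.21, SE 0.08). Of 9 B and plasma cell markers 3 (33.3%) were lower, IGHM, the heavy chain of IgM (−0.46, SE 0.15, lower in 6 of 6 cows), JCHAIN, which joins polymeric antibody (−0.24, SE 0.10), and PRDM1, a factor of plasma cells (−0.16, SE 0.08), although the list's median was 0.03 and its mean −0.06.

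Stromal markers were mixed. Endothelial markers had 2 of 17 lower, PLVAP (−0.26, SE 0.11) and TIE1 (−0.22, SE 0.10), and 1 higher, FLT4 (0.35, SE 0.12). Of 23 fibroblast and matrix genes COL4A1 of basement membrane was lower in 6 of 6 cows (−0.40, SE 0.13) and ELN (elastin) higher in 6 of 6 (0.36, SE 0.09), and the median of −0.10 was 0.01 without cow 1. Of 8 adipocyte markers 2 were higher, LEP (0.24, SE 0.11) and ADIPOQ (0.19, SE 0.09), both with median levels under 5. Of 7 red cell markers 2 were higher, the haemoglobin genes HBG (0.33, SE 0.11) and HBA (0.19, SE 0.09). None of 10 luminal progenitor genes passed in its brightest probe set, the only one read for a gene in a list. The paper lists SOX4 and KIT as lower in the same glands through other probe sets. SOX9, which the paper also lists as lower, was not among the members measured. The median and the mean of a list differed in sign for B and plasma cells, the cell cycle, apoptosis, the EGF axis, luminal progenitors and chemokines. The part of cell composition in the lists above was not tested.

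Core machinery was near 0. None of 67 cytosolic ribosomal proteins passed and their median was −0.01. Of 60 oxidative phosphorylation subunits 2 were higher, COX6A2 (0.31, SE 0.09) and COX6B2 (0.31, SE 0.11), isoforms of heart or testis with low levels here, and the median of 0.06 was −0.01 without cow 1. Mitochondrial ribosomal proteins had 1 of 67 higher, MRPS18A (0.21, SE 0.09). Proteasome subunits had 1 of 32 higher and 1 lower.

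Single cows moved 30 of the named genes by over 1.5 times. Cow 1 did so for 21 of them. Without it PRLR was −0.17, RBPJ −0.12, MYH11 −0.16, KRT5 −0.27, ACVR1 −0.23, TAP2 −0.19, MVD 0.16 and CD28 0.17, and these 8 no longer had an unadjusted p under 0.05. INSR (−0.33), JUP (−0.30), FZD1 (−0.33), COL4A1 (−0.26), TGFB2 (−0.26), HK1 (−0.23), TSC1 (−0.22), TIMP1 (−0.22), CCND2 (−0.17) and the second HDAC7 probe set (−0.17) kept it without cow 1. Without cow 6 CTSH was −0.20, HSPA1A −0.18, JCHAIN −0.16 and TGFBR1 0.19, without cow 3 HMOX1 was −0.25, and without cow 2 MAOA was 0.15, all with an unadjusted p above 0.05.

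The day 40 differences were set beside those of day 21, measured in the same rear glands while 4× milking was in force, and of day 23, measured in fore glands 2 days after it ended. Gland position and day change together between day 23 and the other days. Across the 24016 probe sets the day 40 mean difference correlated with that of day 21 at r = 0.55 and with that of day 23 at r = −0.15. Of the 2127 probe sets lower on day 40, 83.3% were also negative on day 21 and 40.1% on day 23, and of the 2783 higher ones 81.1% and 46.3% were positive. Over all probe sets 68.5% and 45.1% kept their sign. Cow 1, with the widest spread on day 40, also had the day 21 array least like the others of its day. That 2× array had a median correlation of 0.951 with them. The part of cow 1 in the likeness of days 40 and 21 was not tested.

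**Figure D5:**
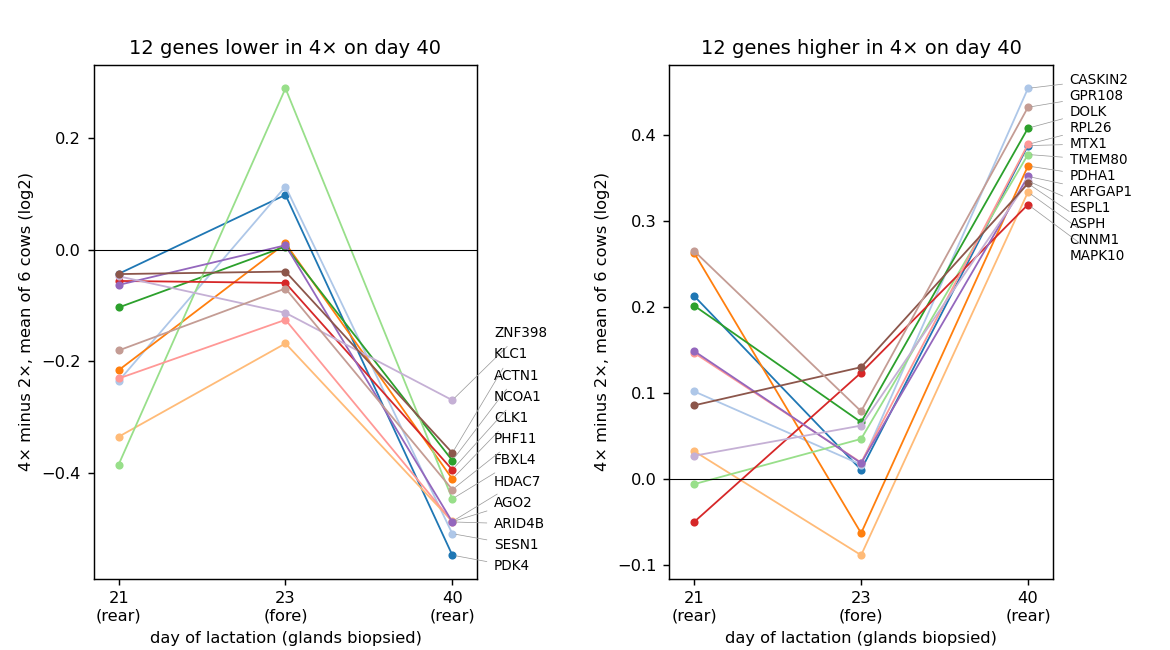
Mean difference (4× minus 2×, log2, y axis) by day of lactation (21, 23 and 40, x axis, with the glands biopsied) for the 12 lower (left) and 12 higher (right) genes with the smallest day 40 p, each line a gene. All 12 lower genes lie between −0.39 and −0.04 on day 21 and between −0.17 and 0.29 on day 23, and the higher genes between −0.05 and 0.27 and between −0.09 and 0.13. The genes were chosen on their day 40 values.

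The 8 genes with the largest negative means on day 40 were all negative on day 21 and positive on day 23, and of the 8 with the largest positive means 7 were positive on day 21 and 3 negative on day 23. These counts are descriptions, since the genes were chosen on day 40 values of the same cows with earlier results of these data known. CYBRD1 was −1.04 on day 21, 0.46 on day 23 and −1.05 on day 40, CLU was −1.28, 0.54 and −0.99, and EGR1 was −1.24, 0.61 and −0.87. PDK4 had the same signs but was −0.04 on day 21 and 0.10 on day 23 against −0.55 on day 40, and SESN1 was −0.24, 0.11 and −0.51. For PDK4 the day 40 minus day 21 difference was −0.50 (SE 0.15) and had an adjusted p of 0.789 in limma.

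In the direct test of day 40 minus day 21 no probe set passed (smallest adjusted p 0.789 in limma), with 793 (3.3%) negative and 651 (2.71%) positive at an unadjusted p under 0.05. The smallest p among negative ones included MSTN (myostatin), a growth inhibitor of the TGF-β family, whose difference moved by −1.20 (SE 0.26), from 0.83 in 4× milking to −0.36 on day 40. The other MSTN probe set was 0.96 on day 21 and 0.22 on day 40. SEC16B, of endoplasmic reticulum exit sites, changed by −0.63, ZZEF1 by −0.43, TMEM88 by −0.40 and BIRC6 by −0.34. Among positive ones COL17A1, a hemidesmosome collagen, went from −0.56 to 0.34, a change of 0.90, GGT6 changed by 0.57, CKB by 0.47 and P2RY2 and MAPK10 by 0.37 each.

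For day 40 minus day 23 the smallest adjusted p was 0.417 in limma, with 1341 (5.58%) negative and 1514 (6.3%) positive at an unadjusted p under 0.05. PDK4, in its second probe set, changed by −0.94, from 0.33 on day 23 to −0.61 on day 40, FBXL4 by −0.74, SESN1 by −0.62, RFC5, a clamp loader subunit, by −0.52 and UFSP2 by −0.41. IQGAP3, a scaffold of proliferating cells, changed by 0.61, from −0.25 to 0.36, ADGRL3 by 0.47, KLK1 by 0.46, PDHA1 by 0.43 and CNNM1 by 0.42. Of the 12 lower genes with the smallest day 40 p, 6 had an unadjusted p under 0.05 for day 40 minus day 21 and 11 for day 40 minus day 23, and of the 12 higher genes 6 and 10. These genes were chosen on the day 40 values that both contrasts contain.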

How the data were processed

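RNA of 36 mammary biopsies was hybridised by the authors to Affymetrix Bovine Genome arrays, and the deposited values are log2 signals after robust multi-array averaging (RMA, version not given in the sources used here). Precision is limited by the number of arrays. Groups came from sample titles and pairs from the cow named in the labels. Paired day 40 arrays correlated at 0.251 to 0.574 in their deviations from group means, and 12 of 12 were most alike to the other array of their cow. The 36 value columns were all mapped, leaving 0 unmapped. Control probe sets were left out, 24016 remained, and symbols came from GEO's platform annotation, of which a check of gene IDs against RefSeq changed 0, with 13292 probe sets having 1 symbol, 86 several and 10638 none.

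Within-cow differences (4× minus 2×) of 3 days were fitted with limma 3.58.1 in R 4.3.3 (lmFit, eBayes) with a mean for each day, and p-values were adjusted by Benjamini and Hochberg over 24016 probe sets. Summaries used pandas 2.3.3 with numpy 2.4.6 under Python 3.11.15, and figures were drawn in matplotlib 3.10.9. The fit was tested on simulated data. Named genes had 1 symbol and a mean of at least 5 on day 40. The same sign in at least 5 cows was required for the 12 in each direction with the smallest p. It was also required for the 8 in each direction with the largest mean difference at an unadjusted p under 0.05. For the 5 in each direction for each contrast of days no such agreement in sign was required. The 3 members of each list with the smallest p were taken whatever their level. Not all of them are printed above, and those left out include C9 and CATHL2, both higher in 4× glands. Genes added beyond this rule included EGR1, CLU, CHI3L1, SOX4 and THBS1, taken from earlier results of these data. Also added were other members of the lists and those said to be chosen after their values were seen. LRP2, sought on the same ground as EGR1, had no probe set with 1 symbol. In a list a gene was represented by its brightest probe set. The comparison, the members and the 48 gene lists were chosen with earlier results of these data known. Alternatives were the unpaired fit, day 40 alone, a random block for cow, other moderation, array weights, other scaling, filters on dim probe sets and leaving out each cow. Sequences and genome positions were not used here.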

Additional observations from a re-analysis of the deposited data

Results flagged for a closer look

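Among 39 genes and 48 lists examined for a cow set apart from the other 5 by Dixon's criterion, the gap to the nearest cow over the whole range, 3 were found, and chance sets apart about 1 in 20 such groups. The SRP68 probe set differed by 4.56 in cow 4 (gap over range 0.71). S100A7 differed by 4.08 in cow 4 (0.862). The mean of the mitochondrial ribosomal protein list was 0.32 in cow 1 (0.657).

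Among the 195 probe sets of genes chosen by the naming rule, 2 had differences of opposite sign in every cow on 2 days. Over all 24016 probe sets, 11 did so between days 40 and 21 and 27 between days 40 and 23. TIE1 was lower in 4× glands of 6 of 6 cows on day 40 and higher in 6 of 6 on day 21, a change of −0.44 on the log2 scale. IQGAP3 was higher in 6 of 6 cows on day 40 and lower in 6 of 6 on day 23, a change of 0.61. Neither change passed an adjusted p of 0.05 in limma.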

How the results depend on the processing

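In each alternative 0 probe sets had an adjusted p under 0.05 on day 40, and the smallest adjusted p was lowest with array weights (0.0548) and without cow 2 (0.0665). At an unadjusted p under 0.05 the fit with no replicate block, which ignores the pairing by cow, gave 983 lower and 1949 higher probe sets on day 40. With 1 probe set a gene 872 were lower and 826 higher, of fewer tested. The higher ones numbered 1546 with dim probe sets left out, 1758 with arrays centred on their median and 1024 scaled to reference genes. Leaving out each cow in turn gave 1195 to 2696 lower and 1451 to 3922 higher, with the lowest counts without cow 6, 1217 lower without cow 3 and 1685 higher without cow 1. For day 40 minus day 21 the replicate block across days gave 1345 negative and 1302 positive and reference scaling 142 positive, and cows left out in turn gave 485 to 870 and 425 to 734, with 485 negative without cow 1 and 510 negative and 425 positive without cow 6. For day 40 minus day 23 reference scaling gave 798 positive, and cows left out in turn gave 482 to 1960 and 532 to 2317: 482 and 532 without cow 6, 709 and 840 without cow 1, 776 negative without cow 3 and 2317 positive without cow 2. The cause of these shifts was not tested. GLYCAM1, BTN1A1 and THBS1, each within 0.03 of 0, changed sign under some alternative, and 30 of 48 list medians kept theirs under every one. THBS1 was read here in its brightest probe set, and the paper lists it as lower on day 40 through another. With 6 pairs and differences mostly under 0.5, the spread between cows limits what can be told.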
